A study of Mus musculus with 2 samples.

Results

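Retained-intron transcripts are annotated RNAs of a gene in which sequence that other transcripts of the gene remove as an intron is kept. The members were all transcripts that were quantified in both libraries and that the GENCODE M21 annotation classes as retained_intron. They numbered 14285 of 103639 mouse transcripts, in 6338 parent genes. Of these, 14074 lay in protein-coding genes and 211 in other genes. The material was adult C57BL/6J mouse liver, taken at 8 weeks with no treatment or genetic change named. Total RNA longer than 200 nucleotides was sequenced from it in 2 libraries, numbered as biological replicates 1 and 2. Both form 1 group, so the data describe levels and the spread between the libraries, and no test between conditions was possible. The labels give the same donor identifier for both libraries and no sex, so the spread may be technical.

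During splicing, the spliceosome joins exons at a donor site, which usually begins the intron with GT, and an acceptor site, which usually ends it with AG. A transcript that keeps an intron often meets a stop codon within it, and such RNAs are typically held in the nucleus or degraded in the cytoplasm by nonsense-mediated decay. Transcripts of splicing factors and of the CLK kinases, which phosphorylate them, are known for introns that are kept in this way. In total RNA, reads within an intron from a precursor that has not yet been spliced and from a finished RNA that keeps the intron cannot be told apart.

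The members were of several shapes, and the sequences printed here show what some of the most abundant members, and members of a few genes described further on, hold of an intron. Except for Ccdc162-204, they were chosen after their values were seen. Each is read from the transcript sequence of the member in GENCODE M21, in the direction of transcription, on the GRCm38 (mm10) assembly. Capitals mark the first and last 2 bases of the intron where the member holds them, and the first stop codon in the reading frame of the coding transcript that removes the intron; in Selenop-204 and Ces1d-202 the stop codon overlaps the GT. All but Ccdc162-204 carry 20 bases of each adjoining coding exon that the member also holds. Trf-209 begins 10 bases before the end of intron 14 of Trf-203 (chr9:103211977-103212006, minus strand), so the part printed is its first exon's start. Selenop-204 runs past the donor site of intron 2 of Selenop-206 (chr15:3274857-3274976, plus strand), Ces1d-202 past that of intron 2 of Ces1d-201 (chr8:93194805-93194896, minus strand) and Rps9-206 past that of intron 3 of Rps9-201 (chr7:3704749-3704868, plus strand). Eef1a1-203 holds the whole of intron 6 of Eef1a1-201, of 85 bases (chr9:78479173-78479297, minus strand), and Hspa8-207 the whole of intron 3 of Hspa8-201, of 115 bases (chr9:40802604-40802758, plus strand). Tef-203 (chr15:81815242-81815361, plus strand) and Snrpd3-202 (chr10:75519441-75519560, plus strand) run past donor sites of a clock output factor and of a core spliceosome protein, and the 100 intron bases of Snrpd3-202 printed hold no stop codon in frame. Ccdc162-204 holds the whole of intron 14 of Ccdc162-212, of 208 bases (chr10:41553208-41553415, minus strand), and only that intron is printed.
Trf-209: ctctacccAGgaaagaaccctgccgaatgg
Selenop-204: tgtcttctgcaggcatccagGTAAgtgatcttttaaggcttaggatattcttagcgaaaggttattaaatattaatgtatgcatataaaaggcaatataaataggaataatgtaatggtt
Ces1d-202: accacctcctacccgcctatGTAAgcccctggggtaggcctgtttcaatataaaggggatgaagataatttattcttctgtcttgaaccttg
Rps9-206: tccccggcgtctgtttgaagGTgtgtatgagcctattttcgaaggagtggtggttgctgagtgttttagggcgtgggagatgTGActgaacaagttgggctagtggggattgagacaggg
Eef1a1-203: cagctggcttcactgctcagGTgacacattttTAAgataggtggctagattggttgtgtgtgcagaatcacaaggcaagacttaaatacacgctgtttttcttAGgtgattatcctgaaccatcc
Hspa8-207: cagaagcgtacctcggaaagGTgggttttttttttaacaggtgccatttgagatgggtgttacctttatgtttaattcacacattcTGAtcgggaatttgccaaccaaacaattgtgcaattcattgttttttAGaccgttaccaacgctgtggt
Tef-203: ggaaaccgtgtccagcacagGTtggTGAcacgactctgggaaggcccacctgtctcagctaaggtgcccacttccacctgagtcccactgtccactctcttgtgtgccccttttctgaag
Snrpd3-202: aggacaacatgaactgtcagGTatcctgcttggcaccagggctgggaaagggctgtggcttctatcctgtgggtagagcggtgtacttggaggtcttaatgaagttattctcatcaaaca
Ccdc162-204: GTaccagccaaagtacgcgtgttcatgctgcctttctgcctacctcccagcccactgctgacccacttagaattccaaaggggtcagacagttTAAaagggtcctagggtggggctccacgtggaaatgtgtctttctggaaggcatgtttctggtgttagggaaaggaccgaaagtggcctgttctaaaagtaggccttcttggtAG
Of the sequences printed, 7 hold a donor site and an intron stop codon in frame. The first such codon began at intron base 2 in Selenop-204 and Ces1d-202, base 6 in Tef-203, base 13 in Eef1a1-203, base 63 in Rps9-206, base 67 in Hspa8-207 and base 94 in Ccdc162-204.

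A member was called detected with 10 or more expected counts, the deposited estimate of its fragments, in both libraries. Of the 5835 detected members whose model was unchanged between the quantified and the M21 annotation, 2106 (36.1%) held at least 1 whole intron of a coding transcript of their gene. The other 3729 held no whole intron. Of them, 2536 had an exon that ran past a donor site and ended within the intron. An exon that began within an intron and ran through its acceptor site was found in 1684, and 600 had both. Any exon of the member and the introns of any coding transcript of the gene were counted, so alternative splice sites are included. Most detected members thus had an exon annotated as entering an intron of a coding transcript without crossing it.

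Introns held whole were short. The 3304 introns, distinct by start and end so that alternative ends of an intron count separately, had a median length of 330 bases (quartiles 142 and 845), against 1094 (354 and 2737) for the 23306 other introns of coding transcripts in the same 1567 genes. Of the introns held, 47.3% were 300 bases or shorter, against 22.5% of the others, and 20.5% against 52.6% were longer than 1000 bases. A member had to be annotated with the intron inside an exon, so these lengths describe the annotation as much as the liver: introns held only by members that were not detected had a median of 181 bases. Coding exons lay on both sides of 93.2% of the introns held by detected members. Sequence could be read for 1865 of them, of which 97.7% began with GT and ended with AG and the median GC content was 49.4%. Of the 1708 with a known reading frame, 91.6% held a stop codon in frame, and the first began at a median of base 36. Of the same introns, 34.0% had a length that is a multiple of 3, and 35 introns combined such a length with no stop in frame.

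**Figure D1:**
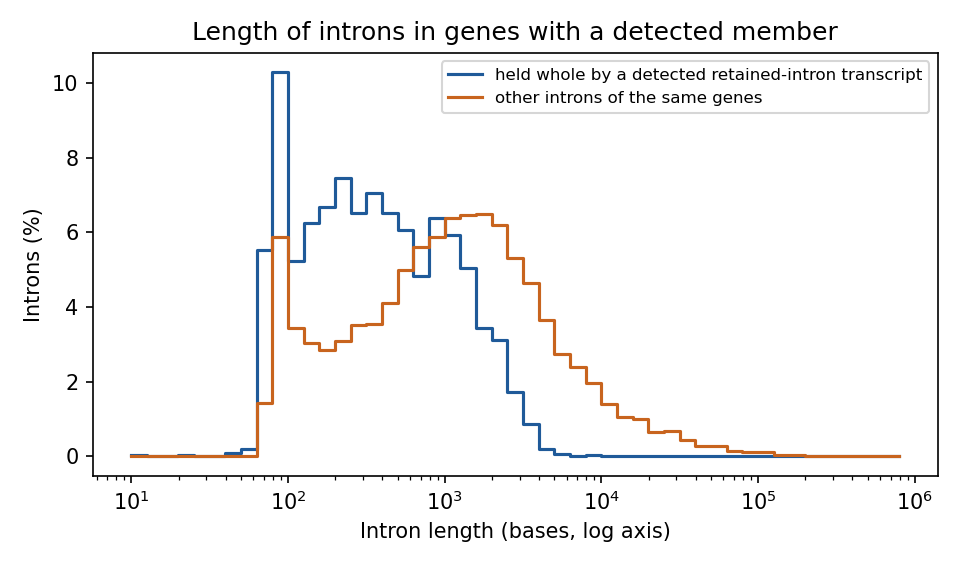
Distribution of intron length (bases, log axis) as a percent of introns, for the 3304 introns held whole by detected retained-intron transcripts (blue) and the 23306 other introns of coding transcripts in the same genes (orange). The introns held had a median of 330 bases, against 1094 for the others.

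Most members were scarce and a few were abundant. Detected members numbered 6011 (42.1%), and 2869 members had 0 expected counts in both libraries. At 100 counts in both libraries 1678 remained, and 112 at 1000 counts. TPM, a level per transcript length, was rescaled so that the mouse transcripts alone sum to the usual total (endogenous TPM). By this measure 4275 members reached 0.1 TPM in both libraries, 432 reached 1 TPM, 39 reached 10 TPM and 4 reached 100 TPM. The median detected member had 56.6 counts in replicate 1 and 55.8 in replicate 2, and made up 6.75% and 6.82% of the TPM of its gene.

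Mouse transcripts had 83816488 expected counts in replicate 1, of which the members took 1192867, and 71068191 in replicate 2, of which they took 1098929. Within protein-coding genes they made up 3.96% ± 0.117 of TPM (SD, n = 2) and 2.03% ± 0.0198 of counts. Transcripts classed as protein_coding made up 91.3% ± 0.352 of TPM, processed_transcript 2.99% ± 0.108 and nonsense_mediated_decay 1.19% ± 0.0647. TPM divides by length, and members were short, with a median of 829 nucleotides against 1869 for protein_coding transcripts. Within protein-coding genes their share was thus larger by TPM than by counts. Over all mouse transcripts it was smaller, at 0.475% and 0.664% of TPM against 1.42% and 1.55% of counts. The class misc_RNA took 74.7% and 72.1% of that TPM, and every TPM level given here is a part of the same total.

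Trf-209 was the most abundant member by counts and by TPM in both libraries. This RNA, from the gene of the iron carrier transferrin, had 55520 expected counts in replicate 1 and 50969 in replicate 2, and 793 and 1092 TPM. It alone held 16.7% and 16.5% of the TPM of all members, and 39.2% and 30.9% of the TPM of Trf. As its sequence shows, only 10 of its 433 bases lie in no other kind of quantified transcript of Trf, and 85.2% of it also overlaps an exon of the read-through gene Gm20425 on the same strand. By expected counts, both Trf members together were 6.56% and 4.86% of the gene.

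Selenop-204, from the gene of the secreted selenium carrier selenoprotein P, had 27863 and 20928 counts, 290 and 330 TPM and 24.2% and 25.03% of its gene. It holds 246 own bases, meaning bases that no other kind of quantified transcript of the gene has, and the posterior SD of its count was 14.2 and 14.6. Cyb5a-203, from the gene of the electron carrier cytochrome b5, had 131 and 119 TPM, 32.1% and 28.1% of its gene, with 413 own bases. Both libraries gave these members a similar part of their gene.

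Ces1d-202, from a liver carboxylesterase gene, had 151 and 122 TPM and 56.3% and 49.6% of its gene, with 72 own bases. Uox-203, from the gene of urate oxidase, had 53.7 and 111 TPM and 29.4% and 35.8% of its gene, with 44 own bases. Aadac-202, from the gene of arylacetamide deacetylase, had 72.9 and 65.7 TPM and 44.9% and 40.1% of its gene, with 51 own bases. Counted by fragments instead of TPM, members made up 11.7% and 9.66% of Ces1d, 3.90% and 5.36% of Uox, and 8.64% and 7.67% of Aadac. In these 3 genes the members' share by counts was thus far below that by TPM. The members named are short, at 387 (Ces1d-202), 448 (Uox-203) and 340 nucleotides (Aadac-202), and few of these bases are their own.

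Rps9-206, from the gene of a small-subunit ribosomal protein, had 89.3 and 122 TPM and 65.7% and 65.4% of its gene, the largest share among the 10 members of highest TPM. It has 109 own bases. Eef1a1-203, from the gene of translation elongation factor 1 alpha, had 98.8 and 109 TPM and 11.3% and 8.59% of its gene, with its 85-base intron as its own part. Genes such as Eef1a1 and Ppia have many processed copies in the genome, so counts of their transcripts are uncertain.

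Hspa8-207, from the gene of the constitutive heat shock protein HSC70, had 6666 counts in replicate 1 and 17215 in replicate 2, and 13.1% and 25.03% of its gene. Ppia-203, from the gene of cyclophilin A, had 1099 and 2865 counts and 15.6% and 32.7% of its gene. Both were higher in replicate 2, by 1.45 (Hspa8-207) and 1.43 (Ppia-203) as the log2 ratio of scaled CPM plus 0.5, a comparison of single libraries with no replicate check.

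Among the 10 members of highest count, the longer models stood out. Fn1-202, from the gene of fibronectin, had 18825 and 19290 counts and 27.2% of its gene in both libraries, and holds the whole of intron 38 of Fn1-213, of which other Fn1 transcripts use shorter forms. Prkd3-205, from the gene of a protein kinase D, had 9788 and 7335 counts and 49.6% and 38.3% of its gene, with 1812 own bases. Rsrp1-204, from the gene of an arginine- and serine-rich protein, had 12132 and 10151 counts and 61.8% and 57.2% of its gene, but only 13 own bases. Of the 10 members of highest TPM, 5 had fewer than 100 own bases and 2 held a whole intron. Of the 10 of highest count, 3 and 6 did.

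**Figure D2:**
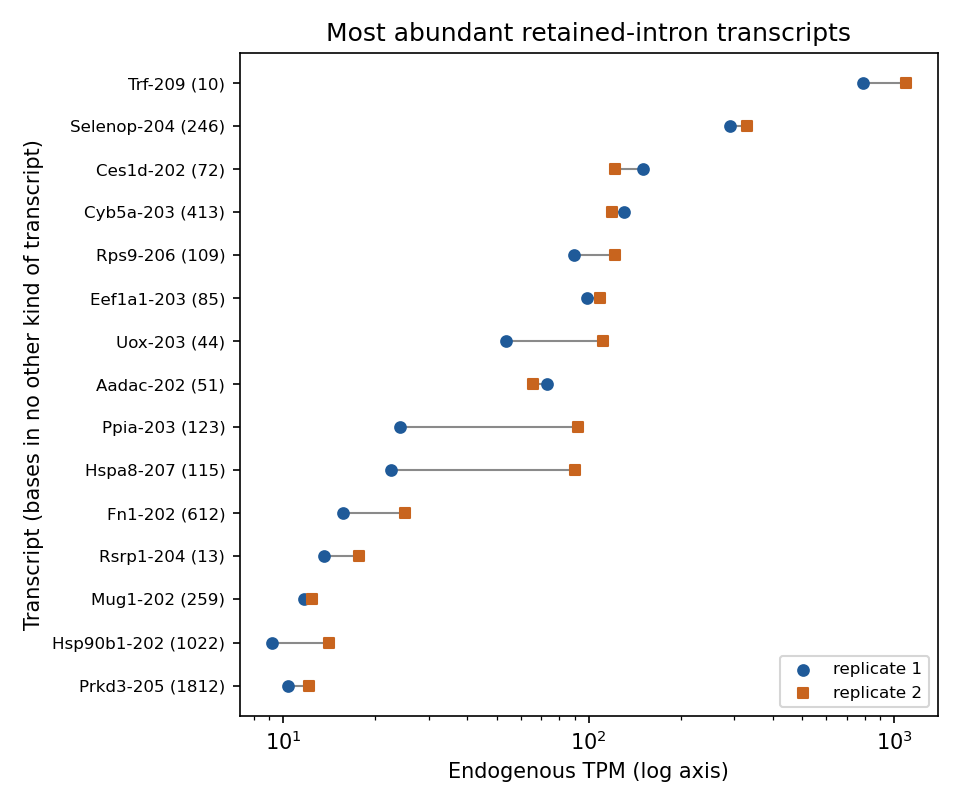
Endogenous TPM (log axis) of the 15 members that rank among the 10 highest by mean count or by mean TPM, in replicate 1 (circles) and replicate 2 (squares), with the number of own bases in brackets. Trf-209, with 10 own bases, lies highest in both libraries at 793 and 1092 TPM, and Ppia-203 and Hspa8-207 lie farthest apart between the libraries.

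Members with few own bases had the larger shares of their genes. The 216 detected members with fewer than 50 own bases were 3.70% of detected members but held 24.7% ± 0.229 of their TPM and 9.36% ± 0.126 of their counts. Most of that TPM was Trf-209, which alone held 16.7% and 16.5% of the TPM of all members and 4.65% and 4.64% of their counts. The median share of the gene over these 216 members was 17.4% ± 0.668. The 2054 members with 1000 or more own bases held 10.7% ± 0.349 of TPM and 37.2% ± 0.00410 of counts, with a median share of 6.35% ± 0.0849. Between these, the 1038 members with at least 50 but under 200 own bases had a median share of 8.69% ± 0.170, and the 2527 with at least 200 but under 1000 had 6.21% ± 0.0636. The posterior SD of the count, which measures how far shared reads leave it uncertain, had a median of 17.0% and 19.2% of the count in the first of these classes (replicates 1 and 2) and of 4.69% and 4.82% in the other. In all, 41 detected members had 0 own bases.

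**Figure D3:**
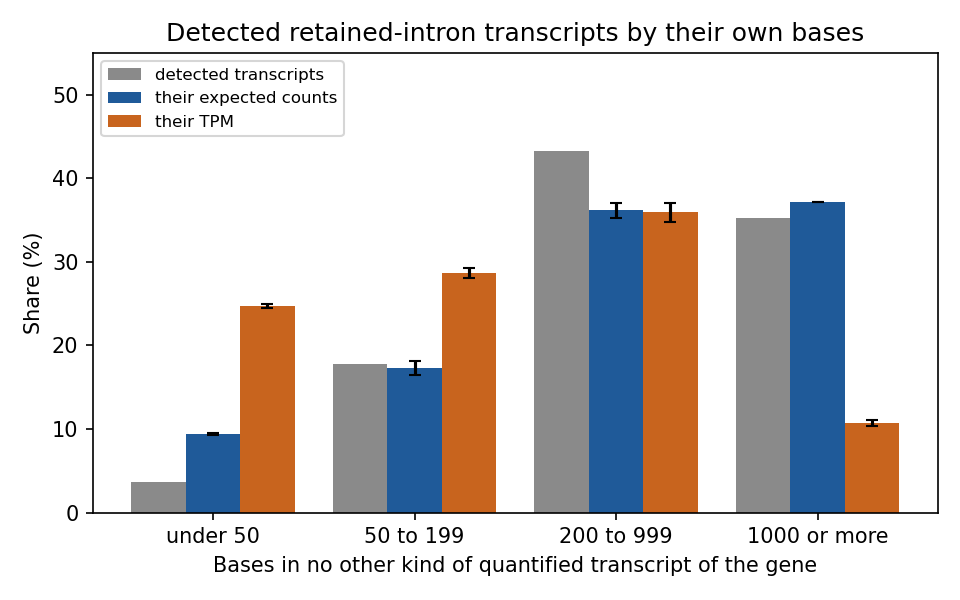
Share (%) of the 5835 detected members (grey), of their expected counts (blue) and of their TPM (orange) in 4 classes of own bases; bars for counts and TPM are the mean of 2 libraries with SD. Members with fewer than 50 own bases are 3.70% of members and 24.7% of TPM, most of which is Trf-209 alone.

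Shares were compared across parent genes in the 2999 protein-coding genes with a member, another kind of transcript, 1 TPM and 100 counts in both libraries. The share is the sum of the members' deposited percentages of the TPM of the gene. Its median was 9.48% in replicate 1 and 9.66% in replicate 2, with quartiles of 3.25% and 22.2% and of 3.13% and 23.1%. The median by counts was 4.28% in the first library and 4.59% in the other. Members made up 10% or more in both libraries in 1313 genes (43.8%), 50% or more in 120 (4.00%), and under 1% in 217 (7.24%). Of the 120 genes, 44 also reached 50% by counts.

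A larger share went with a lower level of the gene. With the parent genes in 4 equal classes by mean TPM, from the lowest to the highest, the median share was 13.6% ± 0.163, 12.5% ± 0.647, 8.75% ± 0.0778 and 4.47% ± 0.141. The genes that liver expresses most were split. Alb, the gene of albumin, has no member. Of the 10 parent genes of highest TPM, 5 were under 2% in both libraries: Gpx1, a glutathione peroxidase (0.210% and 0.140%), Ass1, of the urea cycle (1.01% and 0.820%), Serpinc1, antithrombin (0.770% and 1.05%), Gnmt, of methionine metabolism (1.14% and 0.730%), and Hpd, of tyrosine breakdown (1.43% and 1.26%). Bhmt, a methyltransferase that uses betaine, was at 2.10% and 1.07%. The other 4 were Trf, Selenop, Cyb5a and Eef1a1. With only members of 100 or more own bases, Trf came to 0.110% and 0.160% and Eef1a1 to 0.290% and 0.250%. Selenop was then at 24.2% and 25.03% and Cyb5a at 33.3% and 29.1%.

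The 20 parent genes of largest share had mean TPM from 1.16 (Ccdc162) to 23.6 (Hba-a1), and all were at 76.3% or more in both libraries. Mcm10, a factor of DNA replication, had 95.4% in replicate 1 and 95.7% in replicate 2, from 7 members with 1358 and 1746 counts. Zap70, a kinase of the T cell receptor, had 95.3% and 94.7%, from 562 and 480 counts. Sirt4, a mitochondrial sirtuin, had 94.0% and 92.4%, and Pcsk4, a proprotein convertase, 99.7% and 93.4%. Taf10, a subunit of the general transcription factor TFIID, had 91.4% and 94.5%.

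Further genes of this group serve RNA and protein synthesis. Ccnl2, a cyclin associated with splicing, had 83.6% and 95.1%, from 5976 and 5812 counts, the most of the group. Mars, methionyl-tRNA synthetase, had 82.9% and 83.1%. Mrps33 and Mrps5, proteins of the mitochondrial ribosome, had 83.0% and 82.9% (Mrps33) and 80.1% and 85.7% (Mrps5). Nmd3, the export adaptor of the large ribosomal subunit, had 76.8% and 90.6% by TPM but 18.6% and 36.8% by counts.

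The remaining genes had other roles. Tap2, a subunit of the peptide transporter for MHC class I, had 85.5% and 85.1% from 1 member. Dpm1, an enzyme of mannose transfer, had 86.6% and 88.5%, but 82.8% of its leading member overlaps an exon of the gene Gm20716 on the same strand. Dgkq, a diacylglycerol kinase, had 87.2% and 94.7%. Miip, Cnmd (chondromodulin), Dcakd, Dctn6 (a dynactin subunit), Ccdc162 and the GTPase Rab23 lay between 76.3% and 88.8% in both libraries. Hba-a1, an alpha globin, had 95.7% and 91.2%, but it is near-identical to Hba-a2, so its reads cannot be assigned with certainty, and erythroid markers also differed between the libraries (100.3 and 205 TPM in sum).

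Counted by fragments, 18 of the 20 genes still had 50% or more in both libraries. The leading member held a whole intron in 5 of the 20 genes, had fewer than 100 own bases in 8, and overlapped an exon of another gene on the opposite strand in 5. With only members of 100 or more own bases, 14 of the 20 genes stayed at 50% or more. Mcm10 came to 14.8% and 12.8%, since its leading member Mcm10-204 has 29 own bases. Taf10 came to 0%, but its leading member, with 98 own bases, carried only 48.0% and 51.2% of the gene. The rest of the Taf10 share was left out because own bases could not be found for it. Dpm1 came to 7.43% and 4.27%, Nmd3 to 30.1% and 29.3%, Dctn6 to 32.2% and 32.6%, and Mars, whose leading member has 23 own bases, to 32.9% and 42.7%. Dgkq, whose leading member has 0 own bases, came to 56.6% and 50.5%, and Sirt4 to 56.75% and 55.6%. Zap70 (95.3% and 94.7%), Tap2 (85.5% and 85.1%) and Ccnl2 (83.6% and 95.1%) kept their values. Of all 120 genes at 50% or more, 63 stayed there.

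**Figure D4:**
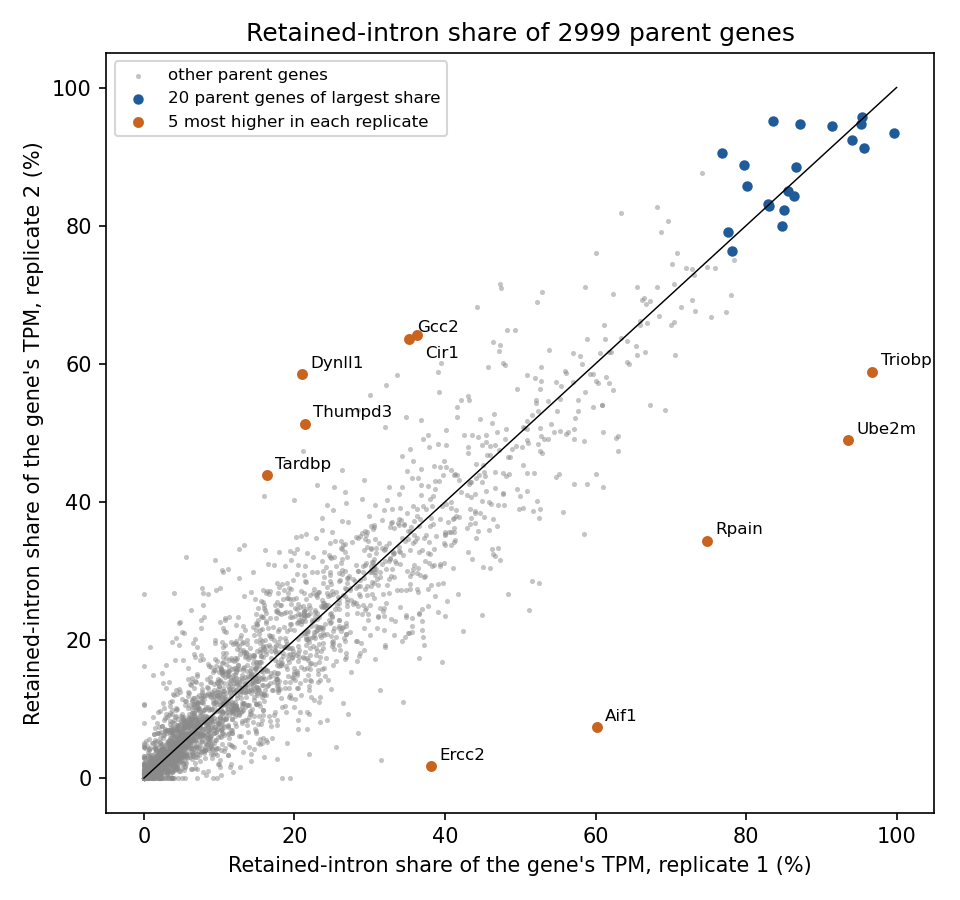
Retained-intron share of the gene's TPM (%) in replicate 1 and replicate 2 for 2999 parent genes, with the line of equal shares; blue marks the 20 genes of largest share and orange the 5 with the largest difference towards each library. Most genes lie near the line, with a median distance between the libraries of 2.09 points.

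Gene lists differed in their shares, described here by numbers of genes and medians beside the median of 9.57% ± 0.127 for all 2999 parent genes. The lists were not matched for level, and the median was 4.47% ± 0.141 in the highest class of parent genes by TPM, from 8.58 TPM up. Annotation also limits the comparison: a gene enters only with an annotated member, which 43 of 89 cytosolic ribosomal protein genes, 5 of 30 plasma protein genes and 0 of 13 apolipoprotein genes had at a measured level. The median parent gene had 2 members. Lists of several genes also had a median of 2, except SR proteins and their kinases with 3 and cytochrome P450 and urea cycle genes with 1. By expected counts instead of TPM, the median share of all parent genes was 4.43% ± 0.215. It was 24.4% ± 3.82 for SR proteins and their kinases, 12.3% ± 0.630 for the core spliceosome and 7.52% ± 0.794 for hnRNPs. For RNA decay and export it was 4.10% ± 0.47, and for lipid and sugar metabolism 1.57% ± 0.244. Ribosomal protein genes were at 1.48% ± 0.0730 by counts.

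SR proteins, which bind exons and recruit the spliceosome, and their kinases had a median share of 33.2% ± 2.02, and 11 of 11 measured genes were at 10% or more in both libraries, where 43.8% of all parent genes were. Srsf11 had 64.2% and 63.3%. The kinases Clk4, at 55.4% and 56.7%, and Clk1, at 46.6% and 48.2%, had 7 members each. Srsf5, the highest expressed at 36.1 and 34.8 TPM, had 27.4% and 27.3% by TPM but 52.7% and 52.6% by counts, since its leading member is 2720 nucleotides long. With only members of 100 or more own bases the list's median was 27.3% ± 0.0778 and 8 of 11 genes were at 10% or more, against 6.895% ± 0.247 and 1074 of 2999 for all parent genes. Srsf3 then came to 0%, and Srsf1 came to 4.87% and 4.68% from 34.7% and 34.4%.

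Core spliceosome genes had a median of 28.5% ± 5.73, with 12 of 19 at 10% or more and 4 at 50% or more. Those 4 were Snrpd3, an Sm protein (60.1% and 76.0%), Rbm5 (63.4% and 63.7%), Sf1, the branch point binding protein (52.4% and 53.2%), and Rbm39 (50.9% and 50.5%). With only members of 100 or more own bases the list's median was 19.5% ± 3.06, with 10 of 19 at 10% or more. These 4 genes then stayed above 50% by TPM. By expected counts Rbm5 kept its level, at 63.6% and 63.3%. Snrpd3 was at 19.5% and 34.2%, Sf1 at 18.6% and 19.6%, and Rbm39 at 24.96% and 25.66%. Rbm25, another gene of the list, had 58.7% and 61.1% by counts but 49.6% and 41.9% by TPM. By TPM the list was not uniform, with Snrpa at 0% in both libraries. Prpf8, the core of the catalytic centre, was at 0.800% and 0.530%, and the helicase Ddx5 at 4.33% and 1.61%.

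The hnRNPs, which bind nascent RNA, had a median of 23.7% ± 0.0247, with 7 of 10 at 10% or more. Hnrnph3 had 47.7% and 60.1%, Hnrnpll 44.0% and 41.1%, and Hnrnpm 35.9% and 30.8%. Hnrnpk, the highest expressed, had 19.4% and 18.8%. With only members of 100 or more own bases the list's median was 16.2% ± 1.32, with 6 of 10 at 10% or more. Hnrnpm then came to 6.46% and 10.4% and Hnrnpk to 11.2% and 17.4%, while Hnrnph3 and Hnrnpll kept their values. Genes of RNA decay and export had a median of 13.3% ± 1.98, with 5 of 9 at 10% or more. Tpr, of the nuclear pore basket, had 38.7% and 41.9%, Thoc2, of the export complex THO, 34.8% and 27.3%, and the export receptor Nxf1 0.10% and 0.18%. By expected counts Tpr had 12.1% and 15.8% and Thoc2 12.6% and 12.3%, and the list's median was near that of all parent genes. With only members of 100 or more own bases the list's median by TPM did not change, and Tpr came to 30.6% and 24.6%. Its leading member Tpr-204, at 7.71% and 16.5% of the gene, was left out because its own bases could not be found. Ogt, the enzyme that adds O-GlcNAc to proteins, had 34.1% and 39.1%.

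Liver regulators with a measured member were few. Nr1i3, the xenobiotic receptor CAR, had 54.5% and 50.1% by TPM and 53.9% and 50.9% by counts. Its leading member Nr1i3-207 had 8921 and 4738 counts, holds introns 6, 7 and 8 of Nr1i3-201 whole, and 85.0% of it overlaps exons of Tomm40l on the opposite strand. Whether the counting used strand is not given in the sources used here, so reads of the partner cannot be told apart. Restricted to members of 100 or more own bases, Nr1i3 came to 37.2% and 33.1%. Nr5a2 was at 9.98% and 11.2%. Of the clock genes, Tef (33.2% and 32.6%) and Per3 (24.0% and 25.1%) were above the median of all parent genes in both libraries, and Nr1d2 was at 9.45% and 12.4%.

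Among the lists of metabolic and ribosomal genes, that of lipid and sugar metabolism had a median of 11.8% ± 0.580 over 7 genes, and 4 were at 10% or more in both libraries. Acacb, the mitochondrial acetyl-CoA carboxylase, was at 32.9% and 23.0%, and Pck1, of gluconeogenesis, at 11.4% and 12.3%. Fasn, fatty acid synthase, was at 15.0% and 22.4%, and at 0% with members of 100 or more own bases. The list's median was then 4.99% ± 0.368, against 6.895% ± 0.247 for all parent genes. The 11 cytochrome P450 genes had a median of 4.26% ± 1.48, with Cyp4f15 highest at 29.2% and 33.1%.

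Urea cycle and amino acid genes had a median of 1.29% ± 0.205, and none of the 11 measured was at 10% or more in both libraries. Sds, serine dehydratase, came nearest at 11.99% and 9.66%. Plasma protein genes had a median of 3.92% ± 1.36 over 5 genes, and 0.935% ± 0.163 with members of 100 or more own bases, where Trf came to 0.110% and 0.160%. The 43 cytosolic ribosomal protein genes had a median of 1.20% ± 0.0495, with 19 under 1% in both libraries and 6 at 10% or more. Among these were Rps9 (65.9% and 65.7%), Rpl5 (63.3% and 81.8%), Rps16 (50.9% and 49.0%) and Rpl12 (30.2% and 30.1%). Over members of 100 or more own bases, Rps16 came to 0%, the other genes named kept their values, and the list's median was 0.635% ± 0.0778. Ribosomal protein genes have many processed copies, so these values are uncertain.

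**Figure D5:**
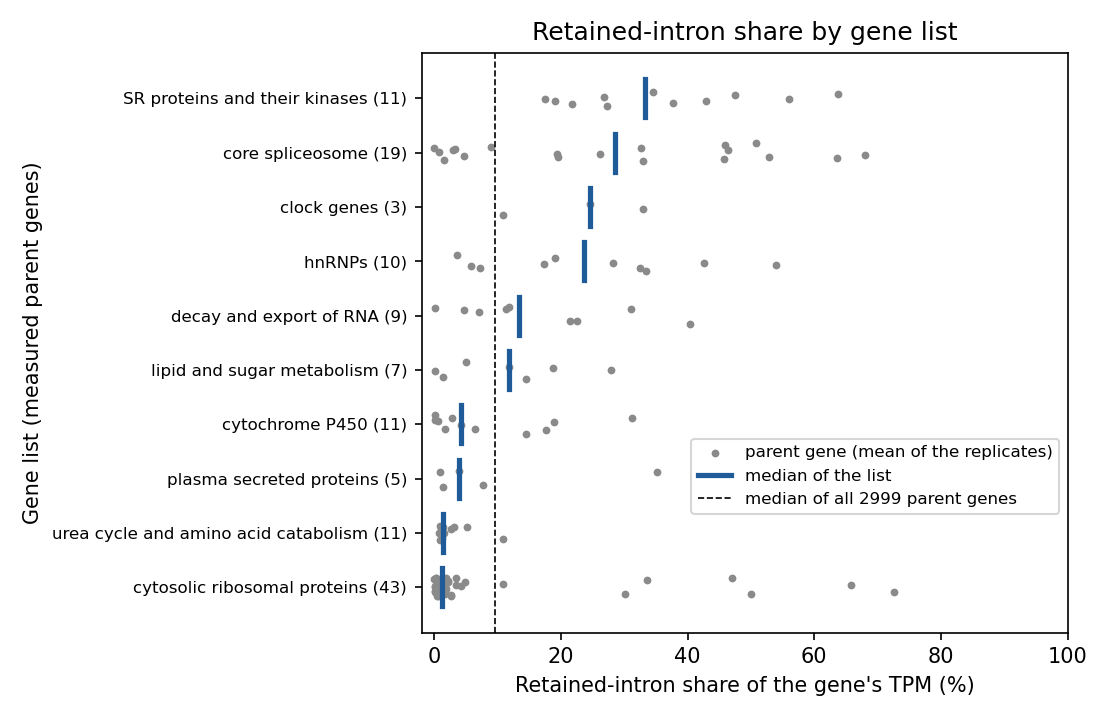
Retained-intron share of the gene's TPM (%) for the measured parent genes of 10 lists with 3 or more such genes (number in brackets); points are genes as the mean of 2 libraries, blue bars the list's median and the dashed line the median of 9.57% of all parent genes. SR proteins and their kinases lie highest, with a median of 33.2%, and cytosolic ribosomal proteins lowest, with 1.20%.

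The libraries gave similar shares. Across the 2999 parent genes Pearson's r of the share was 0.936 and Spearman's rho 0.923, a description across genes, which are not replicates. The median absolute difference was 2.09 points and the ninetieth percentile 9.29 points. The share was over 10 points higher in replicate 1 in 121 genes (4.03%) and in replicate 2 in 147 (4.90%). Over every class of transcript in every protein-coding gene at the same level, 5.11% of shares were that much higher in replicate 1 and 4.97% in replicate 2, so the members' part was near the background.

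The 5 genes whose share was highest in replicate 1 relative to replicate 2 were Aif1, Ube2m, Rpain, Triobp and Ercc2. Aif1, a macrophage protein that binds calcium, went from 60.2% to 7.41%, with 69.1 and 5.03 counts in its members, and Ube2m, the NEDD8-conjugating enzyme, from 93.5% to 49.0%. The leading members of both have 0 own bases, and Ube2m-205 had 771 counts with a posterior SD of 31.4 in replicate 1, against 417 with a posterior SD of 123 in replicate 2. Ercc2, a helicase of TFIIH, went from 38.1% to 1.71% with 17.0 and 1.27 counts.

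The reverse held most for Dynll1, Thumpd3, Gcc2, Cir1 and Tardbp. Dynll1, a light chain of dynein, went from 20.99% to 58.5%, with 25.2 and 118 counts in its 1 member, which has 237 own bases. Tardbp, which encodes the splicing regulator TDP-43, went from 16.3% to 43.8% by TPM and from 2.14% to 8.02% by counts, from a member of 370 nucleotides with 40 own bases.

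By level, 3297 members had a mean count of 50 or more. On TMM-scaled CPM plus 0.5, 78 members (2.37%) were over 2-fold higher in replicate 1 and 89 (2.70%) in replicate 2. The background over all 23671 transcripts at that count was 3.91% and 3.87%. Adding 0.5 CPM is like adding 39.7 counts in the first library and 37.5 in the other, which draws low transcripts together, and these members were lower, with a median mean count of 122 against 296 for all. On deposited TPM, values were higher in replicate 2 by a median log2 ratio of 0.44 over all these transcripts and 0.39 over the members, and the split changed to 39 members higher in replicate 1 and 309 in replicate 2, which is 10.6% of members against 11.9% of all transcripts (449 and 2368).

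Markers of hepatocytes summed to 9291 TPM in replicate 1 and 15260 in replicate 2, with all 6 at 1 TPM or more in both. Those of other cell types also differed between the libraries: pancreatic acinar markers, 6 of 6 at 1 TPM or more, summed to 118 and 28.8 TPM, skeletal muscle markers, 0 of 5 at that level, to 4.71 and 0.241 TPM, and erythroid markers to 100.3 and 205 TPM. The sums were 48.4 and 53.8 TPM for macrophages, 31.6 and 42.6 for sinusoidal endothelium, 32.0 and 48.8 for stellate cells and 5.05 and 5.15 for cholangiocytes. These stand beside the median log2 ratio of 0.44 towards replicate 2 given above for TPM of single transcripts. Their part in the differences between the libraries was not tested, and fewer cells of a type and less RNA per cell cannot be told apart in bulk tissue.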

How the data were processed

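Expected counts, TPM and the percent of each transcript in its gene were deposited by the authors for each library, quantified on mm10 and GENCODE M4 models with transfer RNA models and spike-ins, per the notes deposited with each library. The authors also deposited posterior means and SDs of the count and, as a signal value, the lower bound of the TPM interval. No aligner or quantifier is named in the sources used here. Identifiers were matched without version to GENCODE M21, which classed 101510 of 103639 mouse transcripts; 10070 of 14285 members also matched by version, 13848 kept their length, and structures use only those. TPM was rescaled over mouse transcripts. Counts were rounded for TMM factors (edgeR 4.0.16) and DESeq2 1.42.0 size factors, in R 4.3.3; other values used Python 3.11.15, numpy 2.4.6 and pandas 2.3.3. The count of 2-fold differences was tested on simulated data, and the share on a small made-up example with known answers. Members and lists were chosen with earlier results of these data known. Genes were named as the 20 of largest share in the lower library, the 10 members of highest count and of highest TPM, up to 4 per list, the 5 most higher in each library and the 10 parent genes of highest TPM, plus a few chosen after their values were seen. Rps6k, Rps19bp, Rpl7l and Rpl22l genes are not ribosomal proteins and were left out of that list. Some values and sequences are not reported here.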

Additional observations from a re-analysis of the deposited data

How the results depend on the processing

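No paired analysis was possible because both libraries belong to the same group. Detected members numbered 432 at 1 TPM in both libraries, 14279 by a lower bound of the TPM interval above 0, which nearly any transcript meets, and 3961 with identifiers matched by version; from 1 library the number was 6969 to 6998. The members' part of the TPM of protein-coding genes was 2.03% by counts, 4.08% by posterior mean TPM, 12.5% over genes with a member only, 3.05% with identifiers matched by version and 2.42% with members of 100 or more own bases; single libraries gave 3.88% to 4.04%. The median share of parent genes was 3.785% at 10 TPM, 11.2% with no TPM minimum, 4.43% by counts, 10.2% by posterior mean TPM and 6.895% with 100 or more own bases; single libraries gave 9.48% to 9.66%. Genes at 50% or more numbered 20 at 10 TPM, 60 by counts and 63 with 100 or more own bases; single libraries gave 157 to 158. Without members that overlap another gene the number was 92. Members over 2-fold apart numbered 348 of 3297 by deposited TPM (10.6%, against 11.9% of all transcripts), 257 of 7107 at a mean count of 10 (3.62%, against 7.45%) and 26 of 2038 where the posterior SD was at most 10% of the count (1.28%, against 2.32%). Shares over 10 points apart numbered 17 at 10 TPM and 97 by counts. Fewer genes enter at 10 TPM (562 of 2999). The settings on own bases and on overlap were chosen after seeing the data. The setting on own bases also leaves out the 437 members whose model length changed, whatever their own bases. The other causes were not tested. Depth limits members under 10 counts, whose shares were not described singly.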

Other observations

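Outside protein-coding genes, retained-intron transcripts made up much of several host genes of small nucleolar RNAs, whose introns are the source of those RNAs. Gas5 has 20 members, as many as any parent gene had, which held 45.2% of its TPM in replicate 1 and 48.6% in replicate 2, from 1290 and 983 expected counts. Zfas1 had 46.0% and 61.6%, from 134 and 149 counts, and Snhg17 had 43.3% and 44.2%, from 372 and 392 counts. Snhg5 differed between the libraries, with 72.2% and 26.2% from 154 and 45.8 counts. Apart from these host genes, the noncoding gene A330023F24Rik had 76.2% and 80.5%, from 1724 and 1559 counts.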
